A study of Mus musculus with 16 samples.

Results

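The 10 genes described here encode proteins of the lysosome and its surroundings: the cathepsins Ctss, Ctsb, Ctsd, Ctsz, Ctsh, Ctsl and Ctsc, cystatin C (Cst3), prosaposin (Psap) and lysozyme M (Lyz2). They were chosen by name, and all 10 were among the 11713 genes counted. The material was spleen of female BALB/cJ mice aged 9 months, an inbred albino strain, with no treatment, time course or altered allele in any group. CITE-seq, in which each droplet yields both cellular RNA and the barcodes of bound antibodies, had been run on 2 sources named Main1 and Main2, each with 4 RNA and 4 antibody samples that the deposited tables did not separate. Each source was therefore treated as 1 library. The series' text speaks of 2 spleens, but the labels do not tie Main1 and Main2 to separate animals, so p-values measure at most the spread between these libraries.

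Lysosomes are acid compartments in which proteins, lipids and carbohydrates are broken down, and in antigen-presenting cells the same enzymes trim antigens and the invariant chain for MHC class II. Most cathepsins are cysteine proteases, of which cathepsin S is best known for the last cut of the invariant chain in B cells and dendritic cells, and cathepsin D is an aspartic protease. Cathepsin C activates the granule proteases of neutrophils and cytotoxic cells. Cystatin C is a secreted inhibitor of cysteine cathepsins, prosaposin is the precursor of the saposins that help break down sphingolipids, and lysozyme M cleaves bacterial cell walls and is a common marker of myeloid cells.

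Main1 held 3179 droplets and 7964712 unique molecular identifiers (UMIs, 1 per captured RNA molecule), with a median of 1789 per droplet. Main2 held 3918 droplets and 10174799 UMIs, with a median of 1778, and 14 droplet barcodes occurred in both libraries. Droplets were sorted into gates by their antibody counts, giving 61 neutrophil, 93 monocyte, 77 macrophage, 107 conventional dendritic cell (DC), 35 plasmacytoid DC, 5041 B and 517 T droplets. The antibody panel held no CD138, so the 35 plasma cell droplets were taken as negative for the antigens of other lineages and positive for at least 5 of 10 plasma cell marker genes, none of them among the 10 genes described. Each gate had between 15 and 2838 droplets in a library, and the gates differed in depth, from a median of 1643 UMIs per droplet in the B gate to 6774 in the plasma cell gate. For 7 gates the summed level of the gate's own marker list was higher than in any other gate. The exception was the conventional DC gate, where the DC2 list summed to 646 and 727 CPM (UMIs per 1000000 UMIs of the sum) in Main1 and Main2, against 1138 and 1259 in the plasmacytoid DC gate. The DC1 list likewise summed to 1378 and 2053 CPM, against 3857 and 3953 in the plasmacytoid DC gate, where Irf8, Kmo and Cd209a were high but Xcr1, Tlr3, Itgae, Itgax, Dtx1, Tnip3 and Zbtb46 had no UMI. The conventional DC gate held UMIs of each of the 8 measured DC1 and 8 measured DC2 markers. Erythroid marker genes summed to 37141 and 86074 CPM in the macrophage gate, with only Rhd of 7 at 0, and to between 118 and 1366 in the other gates except monocytes of Main2, where 1 sum reached 22227. Plasma cell marker genes summed to 6846 and 5805 CPM in the monocyte gate and to 5154 in neutrophils of Main1.

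The upstream sequences of 4 of the genes are shown for the patterns described below: Lyz2 as the gene with the widest difference between myeloid and B gates, Psap as a gene high in monocytes, macrophages and both kinds of DC, and Ctss and Ctsz as genes carried by B cells as well as myeloid cells. The RefSeq table of promoters (build GRCm38.p6) had entries for 8 of the 10 genes, and none for Ctsb and Ctsh. Each sequence runs 5′ to 3′ on the gene's strand and ends before the annotated transcript, at chr10:117282322-117282522 (minus strand) for Lyz2, chr10:60277378-60277626 (plus) for Psap, chr3:95526536-95526785 (plus) for Ctss and chr2:174439040-174439289 (minus) for Ctsz. Capitals mark the letters GAGGAA or, on the other strand, TTCCTC, a core bound by PU.1 and other ETS factors.
Lyz2: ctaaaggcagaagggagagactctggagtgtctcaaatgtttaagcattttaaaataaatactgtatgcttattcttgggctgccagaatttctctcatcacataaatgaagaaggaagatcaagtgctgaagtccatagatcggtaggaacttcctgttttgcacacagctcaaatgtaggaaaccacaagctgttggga
Psap: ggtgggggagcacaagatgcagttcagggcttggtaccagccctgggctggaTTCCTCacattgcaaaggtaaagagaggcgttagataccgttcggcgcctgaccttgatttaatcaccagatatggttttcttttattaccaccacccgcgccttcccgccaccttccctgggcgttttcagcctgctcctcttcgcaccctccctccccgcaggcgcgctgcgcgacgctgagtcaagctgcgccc
Ctss: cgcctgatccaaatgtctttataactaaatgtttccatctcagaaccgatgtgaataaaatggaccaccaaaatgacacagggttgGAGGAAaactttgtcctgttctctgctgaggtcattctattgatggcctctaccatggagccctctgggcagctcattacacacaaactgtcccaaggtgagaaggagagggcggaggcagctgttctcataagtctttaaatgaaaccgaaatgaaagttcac
Ctsz: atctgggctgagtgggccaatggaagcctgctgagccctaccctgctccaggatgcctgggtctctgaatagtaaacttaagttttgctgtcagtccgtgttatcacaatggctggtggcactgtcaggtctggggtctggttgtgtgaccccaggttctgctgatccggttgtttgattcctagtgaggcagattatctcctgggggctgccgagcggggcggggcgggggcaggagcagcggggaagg
GAGGAA on either strand occurred in 23.25% of 32851 windows of the 250 bases before a RefSeq start, and in 4 of the 9 windows of these genes: 1 match each for Cst3, Ctss and Psap and 2 for Ctsc. CACGTG, the core of the element bound by TFEB, a transcription factor of lysosomal genes, occurred in 6.02% of all windows and in 2 of the 9, with 2 matches in the window of Ctsd and 1 in that of Ctsl. These windows are set by RefSeq start sites. Against the GENCODE genes, that of Ctsl and a further window of Psap (chr10:60284211-60284460) lie wholly inside the gene, and those of Ctsd and Cst3 mostly. The motifs are different strings. Such matches are descriptions of the letters and not of binding.

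**Figure D1:**
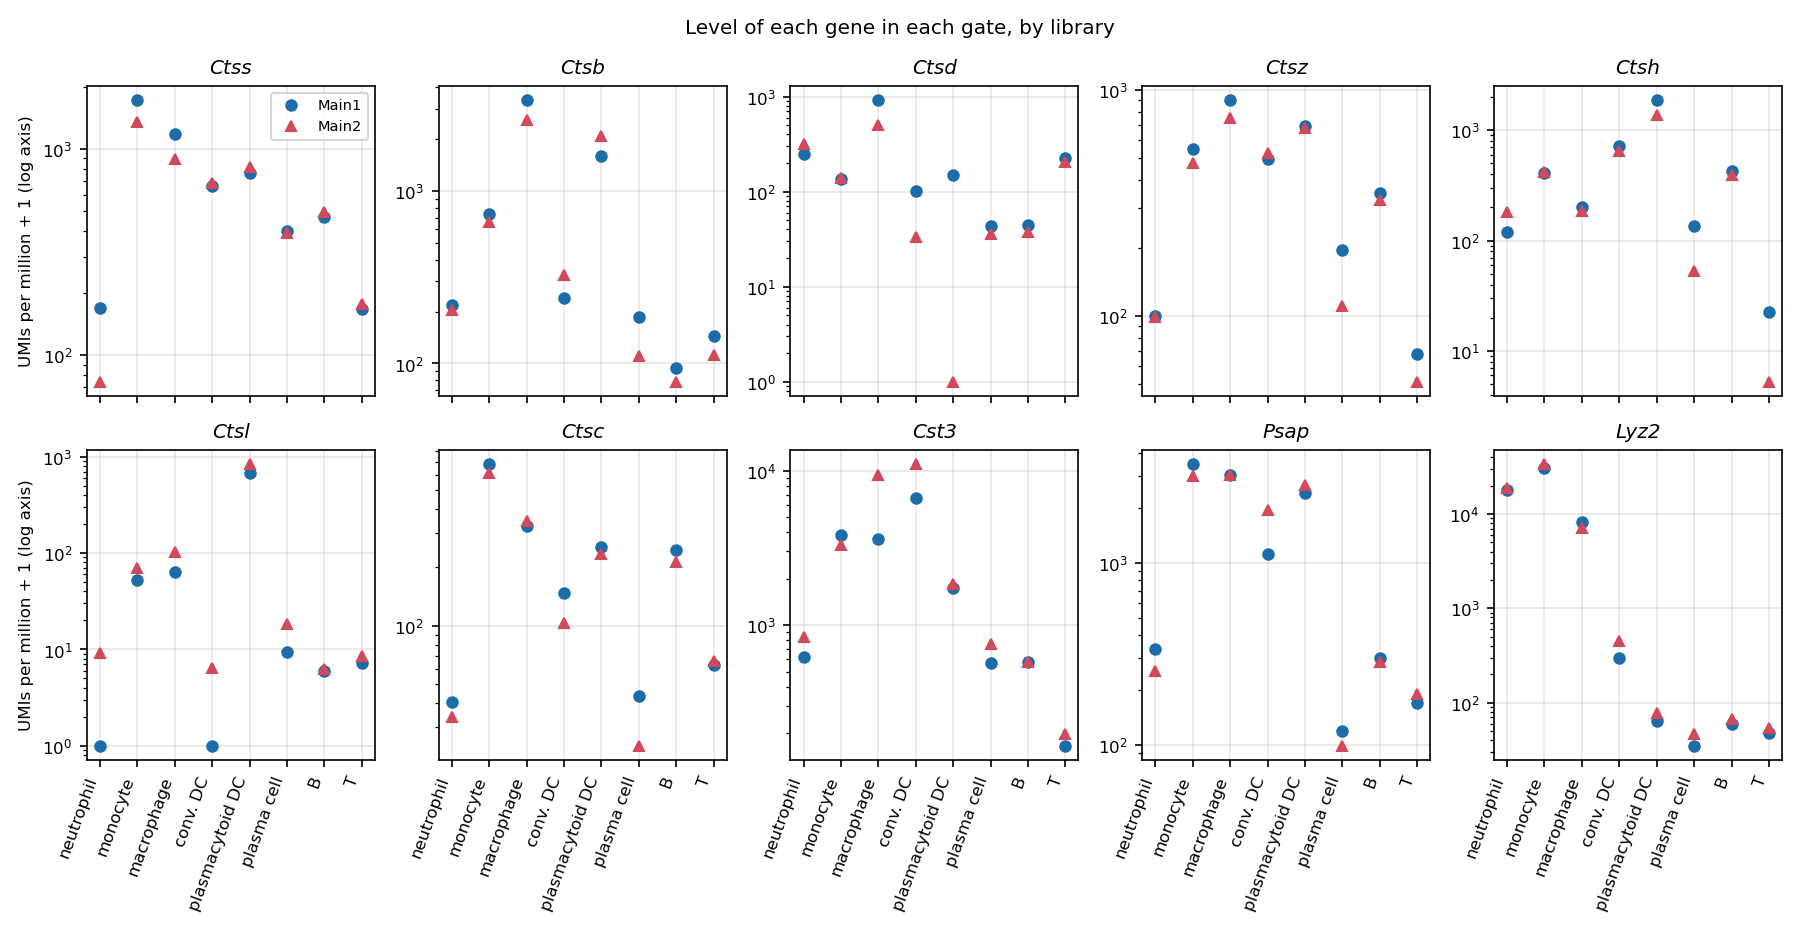
Level of each of the 10 genes in 8 gates, as CPM plus 1 on a log axis, with 1 point for each library (blue circles Main1, red triangles Main2). Lyz2 lies at or above 7164 CPM in the neutrophil, monocyte and macrophage gates and under 80 CPM in plasmacytoid DC, plasma cell, B and T gates, while Ctsl is highest in plasmacytoid DCs.

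Levels below are the CPM of a gate's sum in 1 library, given as Main1 and then Main2. Levels are compared between gates for the same gene and never between genes. Fold changes are log2 values from edgeR's quasi-likelihood test on the UMI sums, with their standard error (SE) and a Benjamini-Hochberg adjusted p over all genes, and a gene is called at an adjusted p under 0.05. In the fit of 8 gates each gene took a variance shared across genes, so the spread of its own 2 libraries does not enter the SE and both library values are given.

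Lyz2 (chr10:117277331-117282321, minus strand) was a gene of monocytes and neutrophils. Its level was 30400.4 and 33727 CPM in monocytes, 18001 and 18713 in neutrophils, 8212 and 7164 in macrophages, and 293 and 447 in conventional DCs. Plasmacytoid DCs had 63.2 and 77.5 CPM, B cells 57.8 and 65.3, T cells 46.8 and 53.3 and plasma cells 33.8 and 46. The first 4 gates were each apart from their neighbours in both libraries, whereas B and plasmacytoid DC values overlapped. Against the B gate the log2 fold change was 8.88 in monocytes (SE 0.28, adjusted p = 2.21e-213), 8.61 in neutrophils (SE 0.28), 6.81 in macrophages (SE 0.26) and 2.51 in conventional DCs (SE 0.24, adjusted p = 3.92e-24). Droplets with a Lyz2 UMI made up 90.3% of the monocyte gate after each droplet was thinned to 1000 UMIs (93.9% in Main1, 86.4% in Main2; 92.5% before thinning). In the T gate, whose cells are not known to make lysozyme, the share was 6.96% (14.9% before thinning), and in the B gate 6.23% (11.7%). Median depths were 3019 UMIs in the monocyte, 2492 in the T and 1643 in the B gate, and the plasmacytoid DC share was 8.57% (17.1% before). The B and plasmacytoid DC shares lie near that of the T gate and are not read as expression.

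Lyz2 UMIs were unevenly spread within the macrophage gate. Of its 77 droplets, 45 had no Lyz2 UMI and the median was 0, and 4 droplets held at least 50% of the gate's Lyz2 UMIs. One droplet carried 40% of them in Main1, without which the level was 5241 CPM, and 1 carried 26.8% in Main2, without which it was 5442. In the monocyte gate the median droplet had 351.7 Lyz2 UMIs per 10000 and 7 of 93 droplets had none, and in the neutrophil gate the median was 160.8 and 3 of 61 had none. Monocyte marker genes summed to 5693 and 4057 CPM in the macrophage gate, with 0 of 9 at 0, against 14154 and 15490 in the monocyte gate, and their part in its Lyz2 level was not tested. The gate sum describes few macrophage droplets but most monocyte and neutrophil droplets. Lyz1, a near-identical copy of Lyz2, was counted at 1384 and 210.5 CPM in macrophages and under 50 CPM in every other gate, and reads shared by the 2 copies could have been assigned to either or dropped.

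**Figure D2:**
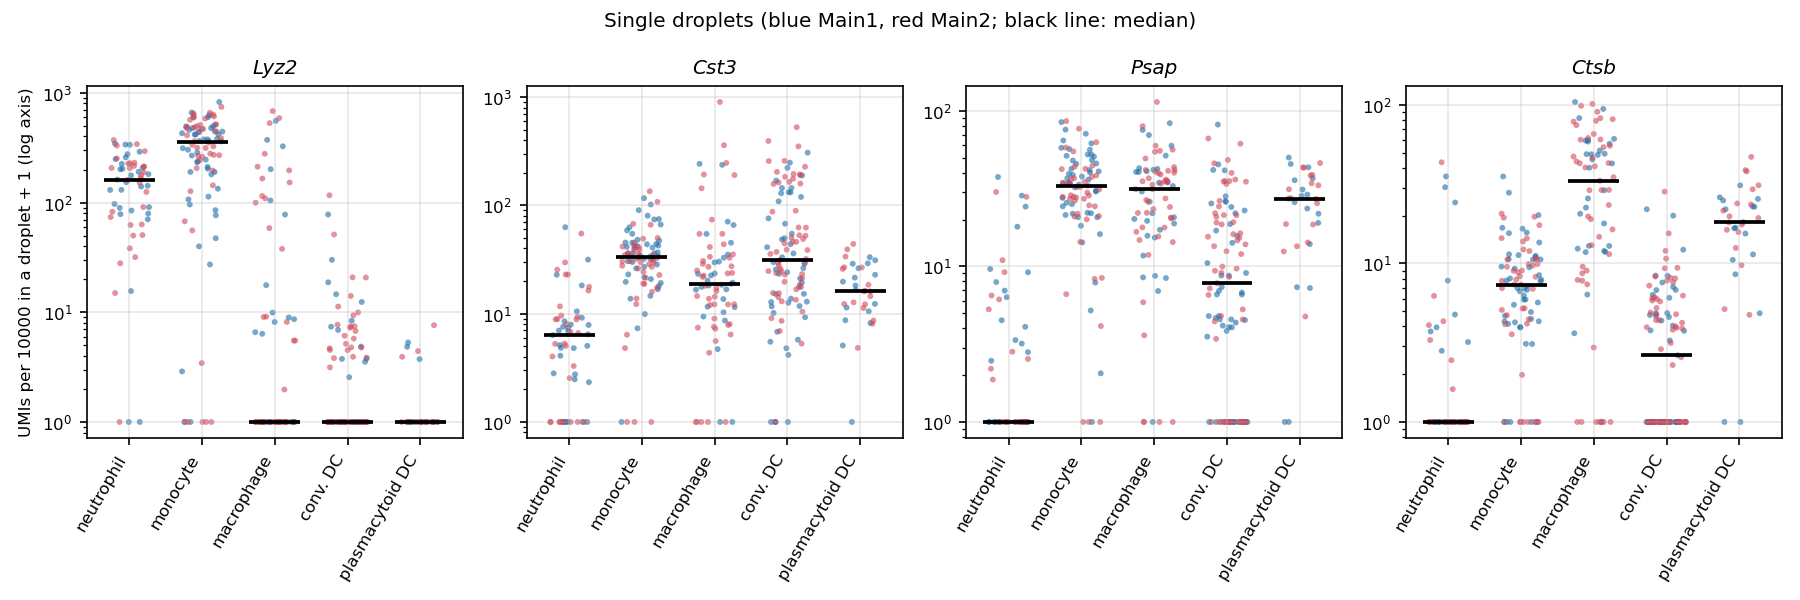
Each point is 1 droplet of a myeloid or plasmacytoid DC gate, with its UMIs of the gene per 10000 UMIs of the droplet plus 1 on a log axis (blue Main1, red Main2), and the black line is the median. Most macrophage droplets have no Lyz2 while a few exceed 100 per 10000, and conventional DC droplets spread widely in Cst3, with a median of 30.3.

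Cst3 (chr2:148871722-148875692, minus strand), the cathepsin inhibitor, was highest in conventional DCs by gate sum. By median droplet it was not, with 30.26 UMIs per 10000 against 32.15 in monocytes. Its level was 6609.6 and 11014 CPM there, 3593 and 9378 in macrophages, 3818 and 3293 in monocytes, and 1749 and 1841 in plasmacytoid DCs. Neutrophils had 622 and 840.2, plasma cells 566 and 753, B cells 578 in each library and T cells 164 and 196. Conventional DCs were above monocytes in both libraries, while the macrophage values spanned those of both gates. The log2 fold change against the B gate was 3.81 in conventional DCs (SE 0.21, adjusted p = 1.98e-71), 3.30 in macrophages (SE 0.21) and 2.50 in monocytes (SE 0.20), and plasmacytoid DCs were also called higher (adjusted p = 4.49e-05). Macrophages of Main2 were set by few droplets: 1 droplet held 35.8% of the Cst3 UMIs there, and without it the level was 6252 CPM in place of 9378. Over both libraries 3 of the 77 macrophage droplets held at least 50% of Cst3, although 7 had no UMI and the median was 17.9 per 10000. DC1 marker genes summed to 793 and 1120 CPM in the macrophage gate, with only Itgae of 8 at 0, and their part in its Cst3 level was not tested.

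The conventional DC gate was itself mixed. Its median droplet had 30.3 Cst3 UMIs per 10000 and the upper quartile 113.4. The 14 droplets positive for CD8a and negative for CD11b, with 4 in Main1 and 10 in Main2, had 17684 and 21405 CPM of Cst3, against 4184 and 6601 in the 83 droplets positive for CD11b and negative for CD8a. Every one of the 14 had a Cst3 UMI, at a median of 198.6 per 10000 against 23.7 in the CD11b-positive droplets. Psap followed at 4232 and 3293 CPM against 699 and 1208. In the other direction Ctsh was at 0 and 135 CPM in CD8a-positive against 908 in each library in CD11b-positive droplets, and Ctss at 0 and 405 against 817 and 825. A level of 0 UMIs of 6616 in Main1 allows up to 453 CPM, which is below the CD11b-positive level of both Ctss and Ctsh in that library. For Ctss in the CD8a-positive part, 1 droplet held 53.3% of the 15 UMIs and 9 of 14 droplets had none. With 4 droplets in Main1 these parts were not tested. The CD8a-positive part made up 8.16% of the gate in Main1 and 17.2% in Main2, beside the higher Cst3 and Psap of the whole gate in Main2, and the part of this in the library difference was not tested. DC1 marker genes summed to 4686 and 4211 CPM in the CD8a-positive part and to 599 and 892 in the CD11b-positive part.

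Psap (chr10:60277627-60302597, plus strand) was high in 4 of the gates. It stood at 3471 and 3003 CPM in monocytes, 3033 and 3022 in macrophages, 2424 and 2655 in plasmacytoid DCs and 1112 and 1939.9 in conventional DCs. Neutrophils had 336 and 253, B cells 297 and 285, T cells 169 and 189 and plasma cells 118 and 97.8. Monocytes and macrophages overlapped (log2 fold change −0.11, SE 0.19, adjusted p = 0.898, macrophage over monocyte), and so did neutrophils and B cells (0.39, SE 0.25, adjusted p = 0.303). The median droplet had 32 Psap UMIs per 10000 in monocytes, 30.3 in macrophages and 26.2 in plasmacytoid DCs, against 6.79 in conventional DCs and 0 in neutrophils. Plasma cells were lower than B cells by edgeR (log2 fold change −0.84, SE 0.29, adjusted p = 0.034), a call lost under 7 of the alternatives, for example with DESeq2 (−0.50, adjusted p = 0.43).

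Among the cysteine cathepsins, Ctsl (chr13:64359337-64370890, minus strand) was highest in plasmacytoid DCs by a wide margin. Cathepsin L can, like cathepsin S, cut the invariant chain, and is best known for this in the thymus. It was counted at 674 and 833 CPM in plasmacytoid DCs, 62.2 and 101 in macrophages and 51.3 and 69 in monocytes. In the other gates it lay between 0 and 17.3 CPM. The log2 fold change of plasmacytoid DCs against the B gate was 6.57 (SE 0.36, adjusted p = 1.66e-70), with monocytes at 3.39 (SE 0.56) and macrophages at 3.91 (SE 0.61). The whole conventional DC gate held 1 Ctsl UMI and plasmacytoid DCs 75, a CPM ratio of 254.3 with an exact 95% interval of 44.3 to 10170. Neutrophils also held 1 UMI, and the ratio of plasmacytoid DCs to them was 169.5 (29.5 to 6783). These intervals cover counting error only. None in Main1 allows up to 20 CPM in conventional DCs and 29.6 in neutrophils. A Ctsl UMI was seen in 48.6% of thinned plasmacytoid DC droplets (82.9% unthinned), against 0.397% of B (0.853%) and 0.387% of T droplets (2.32%).

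Ctsb (chr14:63122462-63145923, plus strand), an endo- and exopeptidase of most phagocytes, separated macrophages and plasmacytoid DCs from the rest. It stood at 3359.5 and 2559 CPM in macrophages, 1602 and 2073 in plasmacytoid DCs, 731 and 663 in monocytes and 239.6 and 323 in conventional DCs. Neutrophils had 217 and 204, plasma cells 186 and 109, T cells 143 and 111 and B cells 93.6 and 77.4. The first 4 gates did not overlap one another, and plasma and T cells did. Against the B gate the log2 fold change was 4.95 in macrophages (SE 0.21, adjusted p = 7.23e-119), 3.83 in plasmacytoid DCs (SE 0.22) and 2.89 in monocytes (SE 0.21). The macrophage level did not rest on erythroid-rich droplets, since without them it was 3493 and 2761 CPM, and 8 of 77 droplets had no UMI.

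Ctsh (chr9:90054152-90076089, plus strand), an aminopeptidase, had another order. Plasmacytoid DCs came first at 1876 and 1376 CPM, then conventional DCs at 726 and 647, B cells at 428 and 389 and monocytes at 411 and 414. Macrophages had 202 and 185, neutrophils 118 and 179, plasma cells 135 and 51.8 and T cells 21.5 and 4.26. B cells and monocytes overlapped (log2 fold change −0.13, SE 0.21, adjusted p = 0.734). Plasmacytoid DCs were higher than B cells by 1.38 (SE 0.21, adjusted p = 1.15e-09) and conventional DCs by 0.67 (SE 0.19, adjusted p = 0.00466), a call that 4 alternatives lost. Macrophages were lower than B cells by this fit (−1.20, SE 0.28, adjusted p = 0.000239), but with gates set on the within-droplet antibody scale, which widened the macrophage gate to 204 droplets, the value was 0.13 (adjusted p = 0.71).

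Ctss (chr3:95526786-95556403, plus strand) and Ctsz (chr2:174427493-174439039, minus strand) were spread over antigen-presenting cells. Ctss was at 1719.6 and 1339 CPM in monocytes, 1182 and 892 in macrophages, 759 and 814 in plasmacytoid DCs and 659 and 679 in conventional DCs. B cells had 465 and 495, plasma cells 397 and 391, T cells 167 and 176 and neutrophils 168 and 73.4. The log2 fold change against the B gate was 1.53 in monocytes (SE 0.19, adjusted p = 8.8e-15), 0.94 in macrophages (SE 0.20) and −1.65 in neutrophils (SE 0.29, adjusted p = 3.19e-07), while conventional DCs (0.41, SE 0.20) and plasmacytoid DCs (0.11, SE 0.23) did not pass. The macrophage call was lost under a stricter gate (0.55, adjusted p = 0.17), and the neutrophil call without Main2 (−1.04, adjusted p = 0.093). For neutrophils 1 droplet of Main2 held 6 of 9 Ctss UMIs, and 49 of 61 droplets had none. Ctsz, a carboxypeptidase also named cathepsin X, was at 902 and 749 CPM in macrophages, 695 and 678 in plasmacytoid DCs, 545 and 476 in monocytes and 493 and 528 in conventional DCs. Then came B cells with 349 and 326, plasma cells with 194 and 109, neutrophils with 98.7 and 97.9 and T cells with 67 and 50.1. Monocyte and conventional DC values of Ctsz overlapped, and of these gates only macrophages were called higher than B cells (1.14, SE 0.21, adjusted p = 8.69e-07), with neutrophils lower (−1.39, SE 0.32). Plasmacytoid DCs did not pass for Ctsz (0.42, SE 0.24, adjusted p = 0.347). Their log2 ratio of (CPM + 10) to B cells was 0.97 and 1.04 for Ctsz and 0.69 and 0.70 for Ctss. With library totals in place of TMM factors, 7 of the 10 genes were called higher in plasmacytoid DCs, against 5. Ctsz in monocytes (0.46, adjusted p = 0.0948) and in conventional DCs (0.53, adjusted p = 0.0503) passed under 4 alternatives each, for example 0.60 (adjusted p = 0.015) and 0.61 (adjusted p = 0.014) without TMM factors.

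Ctsc (chr7:88278085-88310888, plus strand) was a monocyte gene here, at 680.1 and 614 CPM. Macrophages had 327 and 345, plasmacytoid DCs 253 and 233, B cells 244 and 212, conventional DCs 146 and 102, T cells 61.9 and 65, plasma cells 42.3 and 23 and neutrophils 39.5 and 32.6. Neutrophils, whose granule proteases cathepsin C activates, had 8 Ctsc UMIs in all. Against B cells the log2 fold change was 1.37 in monocytes (SE 0.15, adjusted p = 1.18e-17), −0.96 in conventional DCs (SE 0.23, adjusted p = 0.000476), −2.25 in plasma cells (SE 0.39) and −2.27 in neutrophils (SE 0.41, adjusted p = 3.99e-07). Plasmacytoid DCs overlapped the B cells.

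Ctsd (chr7:142375911-142388038, minus strand), the aspartic protease, was highest in macrophages and higher in T than in B cells. It stood at 918 and 497 CPM in macrophages, 247 and 318 in neutrophils, 225 and 205 in T cells and 135 and 138 in monocytes. Conventional DCs had 99.8 and 32.3, B cells 43.6 and 37, plasma cells 42.3 and 34.5 and plasmacytoid DCs 148 and 0, where 0 UMIs allow up to 58.1 CPM. In conventional DCs of Main1 a single droplet held 8 of the 15 Ctsd UMIs. Against B cells the log2 fold change was 3.91 in macrophages (SE 0.22, adjusted p = 5.49e-69), 3.22 in neutrophils (SE 0.27) and 1.61 in monocytes (SE 0.30, adjusted p = 8.31e-07). Ctsd was the one of the 10 genes that was lower in B than in T cells by a called difference, at −2.33 (SE 0.15, adjusted p = 8.67e-55).

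**Figure D3:**
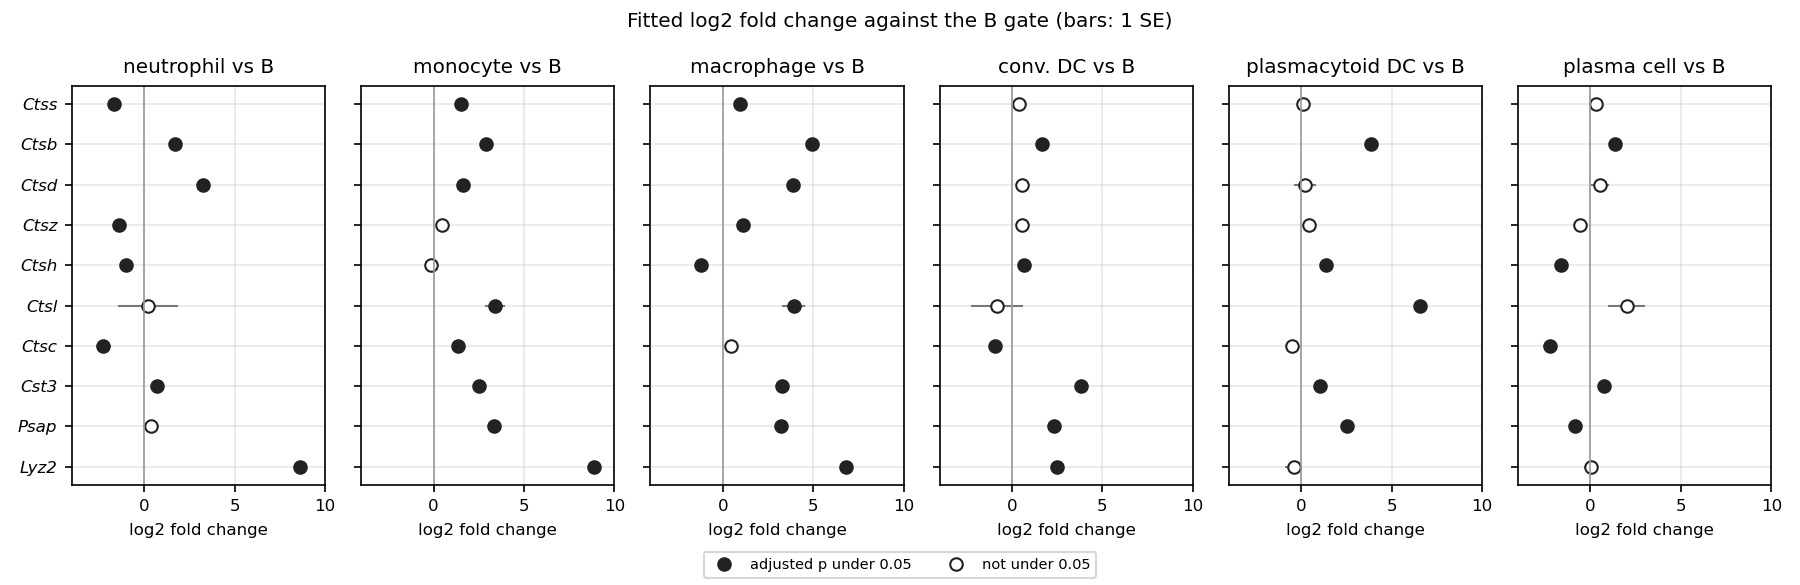
Log2 fold change of each gene in 6 gates against the B gate by edgeR, with bars of 1 SE, filled points at an adjusted p under 0.05 and open points otherwise. Lyz2 reaches 8.88 in monocytes, Ctsl 6.57 in plasmacytoid DCs and Ctsb 4.95 in macrophages, and neutrophils and plasma cells have several genes to the left of 0.

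Counted by gate, monocytes had 8 of the 10 genes higher than the B gate and 0 lower, where 20.2% of all 9314 genes tested were called (9.7% higher, 10.5% lower). Macrophages had 8 higher and 1 lower, where 14.5% of all genes were called (7.39% higher, 7.08% lower). Conventional DCs had 5 higher and 1 lower (14.8% of all genes called, 7.82% higher and 6.97% lower), and plasmacytoid DCs 5 higher and 0 lower (9.81%, of which 3.6% higher and 6.22% lower). Neutrophils had 4 higher and 4 lower (18.9% of all genes called, 8.61% higher and 10.3% lower) and plasma cells 2 higher and 3 lower (12.2%, of which 4.03% higher and 8.16% lower). In neutrophils Lyz2, Ctsd, Ctsb (1.69, SE 0.29) and Cst3 were higher and Ctss, Ctsz, Ctsh (−1.03, SE 0.28) and Ctsc lower, with Ctsb at 0.78 (adjusted p = 0.17) under a stricter gate. The median log2 fold change of the 10 genes was 2.06 in monocytes, 3.26 in macrophages, 0.62 in conventional DCs, 0.72 in plasmacytoid DCs, 0.29 in neutrophils and 0.18 in plasma cells. Over all genes tested the medians were −0.38, −0.37, −0.23, −0.59, −0.66 and −0.52 in the same order, and with library totals in place of TMM factors they were −0.24, −0.23, −0.15, 0.02, −1.04 and −1.13. A small fold change can thus depend on the scaling. This held for Cst3, called higher than in B cells in neutrophils (0.70) and plasma cells (0.78) with TMM factors but at 0.32 (adjusted p = 0.22) and 0.17 (adjusted p = 0.54) without them. Without droplets rich in erythroid or plasma cell genes, no call of the 10 genes was lost in any comparison and 6 were gained. In bulk sums of a gate, fewer cells with a transcript and less of it per cell cannot be told apart. Droplet medians stand beside the sums above for Lyz2, Cst3 and Psap only.

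Between myeloid gates, counts differed by pair. Monocytes had 7 higher and 1 lower than neutrophils, where 9.01% of all genes were called (4.91% higher, 4.1% lower). The largest called differences were in Ctsc (3.64, SE 0.38), Ctss (3.19, SE 0.29) and Psap (2.96, SE 0.24), Ctsd was lower (−1.60, SE 0.31), and Lyz2 did not differ by the test (0.28, SE 0.20, adjusted p = 0.543) but did without TMM factors (0.80, adjusted p = 8e-05). Macrophages had 3 higher and 3 lower than monocytes (3.59% of all genes called, 1.88% higher and 1.71% lower): Ctsd (2.29, SE 0.27) and Ctsb (2.06, SE 0.21) were higher, and Lyz2 (−2.07, SE 0.21), Ctsh (−1.07, SE 0.31) and Ctsc (−0.90, SE 0.23) lower. The third call upward, Cst3 at 0.79 (SE 0.20), rested on Main2, since the log2 ratio of (CPM + 10) was −0.09 in Main1 and 1.51 in Main2, and without Main2 the fit gave −0.35.

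Conventional DCs had 2 higher and 6 lower than monocytes (6.84% of all genes called, 3.44% higher and 3.4% lower). Cst3 (1.30, SE 0.19) and Ctsh (0.80, SE 0.23) were higher, and Lyz2 (−6.37, SE 0.26), Ctsc (−2.33, SE 0.24), Ctsb (−1.22, SE 0.24), Ctss (−1.13, SE 0.21) and Psap (−1.03, SE 0.19) lower, with Ctsl also lower on 1 UMI against 18. Of these 8, 3 were called without Main1 and 5 without Main2, in fits with fewer samples. Cst3 without Main2 was at 0.80 (adjusted p = 0.098) and Psap without Main1 at −0.44 (adjusted p = 0.62). Macrophages had 6 higher and 1 lower than conventional DCs (4.43% of all genes called, 2.32% higher and 2.12% lower), among them Lyz2 (4.30, SE 0.24), Ctsd (3.34, SE 0.31), Ctsb (3.28, SE 0.23) and Ctsl, with Ctsh lower (−1.87, SE 0.29). Ctsl had 16 UMIs in macrophages against 1 in conventional DCs, a CPM ratio of 29.4 with a counting interval of 4.56 to 1231. Plasmacytoid DCs had 3 higher and 2 lower than conventional DCs (6.42% of all genes called, 1.99% higher and 4.43% lower): Ctsl, Ctsb (2.16, SE 0.24) and Ctsh (0.71, SE 0.22) higher, Lyz2 (−2.93, SE 0.41) and Cst3 (−2.79, SE 0.22) lower. Gates on the within-droplet antibody scale held 23 conventional DC, 45 monocyte and 204 macrophage droplets. With them Cst3 was no longer higher in conventional DCs than in monocytes (−0.36, adjusted p = 0.71), and it was higher in macrophages than in conventional DCs (1.16, adjusted p = 0.00015), where the main gates gave −0.51 (adjusted p = 0.125). In conventional DCs against B cells, these gates also lost the calls of Lyz2 (0.44), Psap (0.72), Ctsb (0.86) and Ctsh (0.67). These comparisons share gates and are not independent of one another.

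B cells, the most abundant cells of the spleen, carried most transcripts of 4 of the genes. The B gate, 71% of all droplets, held 74.7% of the Ctsh UMIs of the table, 69.2% of Ctsz, 68.8% of Ctsc and 64.3% of Ctss. These 4 shares lie near the gate's share of droplets. Of all UMIs the gate held 4444611 of 7964712 in Main1 and 5726528 of 10174799 in Main2. The B gate held 38.7% of Psap, 37.9% of Cst3, 26.7% of Ctsb, 18.7% of Ctsd, 18.1% of Ctsl and 2.83% of Lyz2. In contrast the 35 plasmacytoid DC droplets, 0.493% of all, held 26% of Ctsl, and the 93 monocytes, 1.31% of all, held 43.1% of Lyz2. Conventional DCs held 19.6% of Cst3, and the macrophage gate, 1.08% of droplets, held 16.2% of Ctsb. Droplets in no gate held 52.1% of Ctsd and 28.3% of Lyz2, so gated cells give only part of the picture for these genes.

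**Figure D4:**
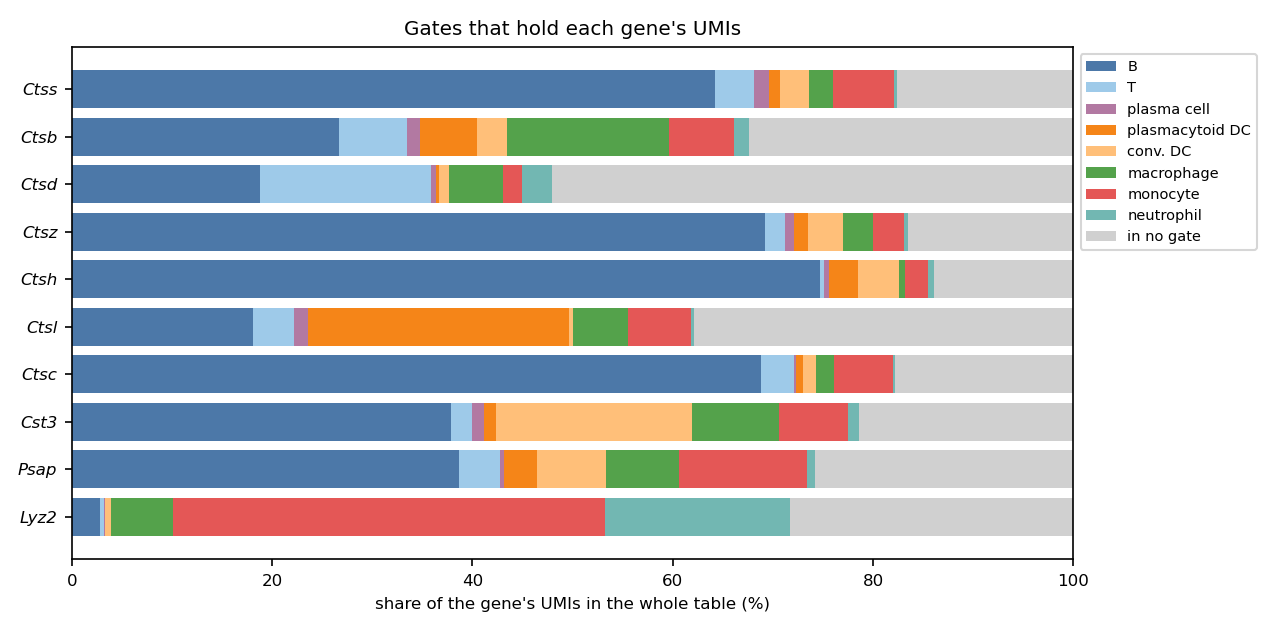
Share of each gene's UMIs in the whole table that fell in each gate, in percent, as stacked bars that sum to 100. The B gate (dark blue) takes 74.7% of Ctsh but 2.83% of Lyz2, and droplets in no gate (grey) take 52.1% of Ctsd.

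The B gate was set beside the T gate after the levels had been seen. Of the 10 genes, 6 were higher and 1 was lower in B cells, where 23.4% of all genes were called (12% higher, 11.4% lower). Ctsh stood at 428 and 389 against 21.5 and 4.26 CPM (log2 fold change 5.13, SE 0.27, adjusted p = 4.33e-76), Ctsz at 2.62 (SE 0.21), Ctsc at 1.92 (SE 0.16), Cst3 at 1.79 (SE 0.20), Ctss at 1.57 (SE 0.19) and Psap at 0.79 (SE 0.20). A Ctsd UMI was seen in 18% of thinned T droplets (45.3% unthinned) and in 4.15% of B droplets (7.44%). Lyz2 (0.38, SE 0.24) and Ctsl (−0.35, SE 0.54) did not pass, and Ctsb, at 143 and 111 CPM in T against 93.6 and 77.4 in B cells, missed the threshold (−0.48, adjusted p = 0.0664) and passed under 4 alternatives.

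Within the B gate, 449 marginal zone droplets (CD21/35 in the highest 25% of B droplets and IgD in the lower part) were compared with 1709 follicular droplets (IgD at or above the median, CD21/35 below the highest 25%). Marginal zone B cells lie where arterial blood enters the spleen and respond early to antigen carried in it. Psap was at 457 and 421 against 267 and 238 CPM, a log2 fold change of 0.93 (SE 0.11, adjusted p = 3.77e-08), and a UMI was seen in 33.2% against 20.3% of thinned droplets (59.7% and 32.5% unthinned, median depths 2141 and 1545 UMIs). Ctsb was at 141 and 91.1 against 90.7 and 50.8 CPM (0.80, SE 0.19, adjusted p = 0.00297). Ctsc (0.48, SE 0.12) and Ctsz (0.40, SE 0.11) were also higher and Ctsh was lower (−0.33, SE 0.10, adjusted p = 0.0277), so 5 of the 10 were called, where 10.2% of all 8444 genes tested were (5.54% higher, 4.65% lower). With DESeq2 only Psap and Ctsb were called, and without the library block only Psap, so Psap was the one difference kept under both. Ctss (0.12, SE 0.09), Cst3 (−0.12, SE 0.10) and Lyz2 (−0.17, SE 0.20) did not pass.

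**Figure D5:**
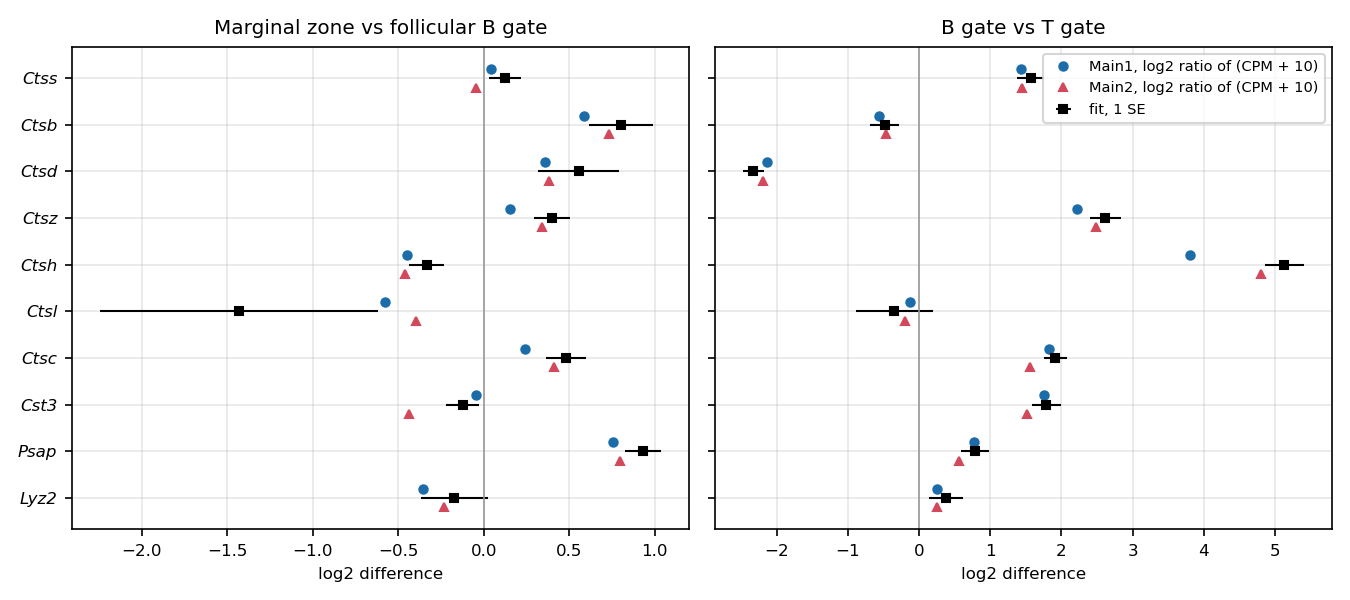
Log2 difference of each gene between marginal zone and follicular B gates (left) and between B and T gates (right): black squares are the edgeR fit with bars of 1 SE, and blue circles and red triangles are the log2 ratios of (CPM + 10) in Main1 and Main2. Psap lies at 0.93 on the left and Ctsh at 5.13 and Ctsd at −2.33 on the right, with both libraries on the same side of 0 for each.

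Plasma cells, the antibody-secreting descendants of B cells, had 3 of the 10 genes lower than B cells, namely Ctsc, Psap and Ctsh, and 2 higher, Ctsb and Cst3. Ctsh was lower (−1.62, SE 0.30, adjusted p = 2.3e-06), at 135 and 51.8 against 428 and 389 CPM. Ctsb was called higher (1.35, SE 0.30, adjusted p = 0.000125), at 186 and 109 against 93.6 and 77.4 CPM, but a gate set by antibodies alone, with 79 droplets, gave 0.44 (adjusted p = 0.25). Under that gate Ctss was lower (−0.77, adjusted p = 0.0012) and Lyz2 higher (1.92), against 0.33 and 0.02 with the marker genes required.

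Across the 8 gates, pairs among the 10 were ranked by the lower Pearson r of log2(CPM + 10) of the 2 libraries. By this measure Ctsb and Psap came first (0.84 in Main1 and 0.87 in Main2), Ctss and Ctsz next (0.92 and 0.84) and Ctsd and Ctsh last (−0.23 and −0.52). These are over 8 gates that share a library and differ in depth. Of all other genes, those most like Psap were Cd68, which encodes a lysosomal membrane glycoprotein of phagocytes (lower r of the 2 libraries 0.98), Mpeg1 (0.96), a pore-forming protein of macrophages, and Zeb2 (0.95). Ctsl was most like Bst2 (0.94), an antiviral surface protein of plasmacytoid DCs in mice, Lefty1 (0.91) and Smim5 (0.89). Lyz2 was most like Hacd4 (0.99), Clec4a2 (0.97) and Msrb1 (0.97), and Ctsz like Unc93b1, the chaperone of endosomal Toll-like receptors (0.95), Irf5 (0.92) and Ly86 (0.89). Unc93b1 also stood among those most like Ctsh (0.88), with Stx7 (0.90) and Myo5a (0.85). The lower r was 0.94 for Ctss with Erp29, 0.92 for Ctsb with Asph, 0.84 for Ctsd with Nbeal2, 0.91 for Ctsc with Clta and 0.91 for Cst3 with Cd244a.

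Other genes of the lysosome, in 9 lists, moved with the 10 genes in part. In macrophages against B cells, 9 of 14 lysosomal membrane proteins tested were higher and 0 lower, where 7.39% of all genes were higher and 7.08% lower, with a median log2 fold change of 1.98 against −0.37 over all genes. Among them were Cd68 (6.65, SE 0.29), Cd63 (6.65, SE 0.39), the iron transporter Slc11a1 (7.19, SE 0.77) and Lamp1 (2.61, SE 0.29). Subunits of the proton pump that acidifies the lysosome followed with 8 of 16 higher and 0 lower, at a median of 0.79, and other lysosomal hydrolases with 7 of 22 higher and 0 lower, led by the phosphatase Acp2 (5.22, SE 0.52). Of 8 genes tested in a list that held other cathepsins and legumain, 2 were higher and 1 lower. Among them was legumain (Lgmn, 2.05, SE 0.26), an asparagine-specific protease that is not a cathepsin but matures several of them. In monocytes, where 9.7% of all genes were higher and 10.5% lower, 8 of 14 membrane proteins were higher and 0 lower (median 1.47), 6 of 16 pump subunits (median 0.37) and 8 of 22 hydrolases (2 lower), led by Cd68 (6.01, SE 0.28) among the first. Pump subunits were also higher in neutrophils, with 7 of 16 higher (8.61% of all genes) and 0 lower, at a median of 0.99.

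Of 9 sphingolipid hydrolases and saposin partners tested, 5 were higher than in B cells in monocytes (9.7% of all genes), 4 in macrophages (7.39%), 3 in conventional DCs (7.82%), 2 in plasmacytoid DCs (3.6%) and 2 in neutrophils (8.61%), and 0 were lower in these 5 gates. Their median log2 fold change in neutrophils was −0.07. Granulin (Grn), which binds prosaposin, was at 1096 and 1221 CPM in plasmacytoid DCs against 37.8 and 30.2 in B cells (4.49, SE 0.23), at 3.61 (SE 0.25) in macrophages and 3.29 (SE 0.22) in monocytes. Gm2a, the GM2 activator that works beside the saposins, was highest in conventional DCs at 1291 and 1266 CPM (2.67, SE 0.19). In marginal zone against follicular B cells Grn (1.40, SE 0.26) and Gm2a (0.73, SE 0.13) were higher. Of the 8 genes of this list tested there, 2 were higher (5.54% of all genes) and 1 lower (4.65%), at a median of 0.09. Of the 7 genes tested there in the list that held other cathepsins and legumain, Lgmn was the 1 called (0.74, SE 0.16).

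Inhibitors of cathepsins and related proteases were high in different gates. Slpi, an inhibitor of neutrophil serine proteases, was at 3448 and 2087 CPM in plasma cells (6.82 against B cells, SE 0.23), 1415 and 1162 in macrophages (4.98, SE 0.23), 1234 and 416 in neutrophils and 1117 and 891 in plasmacytoid DCs, against 0 and 5.39 in conventional DCs. Neutrophils had BC100530, a stefin-type gene, at 514 and 954 CPM and Serpinb1a at 523 and 1150 CPM. In all, 4 of the 8 inhibitors tested were higher there (8.61% of all genes) and 0 lower (10.3%). Serpinb1a was lower than in B cells in monocytes, macrophages, both kinds of DC and plasma cells, by −2.76, −3.65, −3.86, −3.48 and −5.14. Ctsw and Cst7, genes of cytotoxic lymphocytes, were lower in B than in T cells (−4.76, SE 0.26, and −4.81, SE 0.32).

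MHC class II processing genes, whose products use these cathepsins, did not follow them across gates. Of 11 tested, 11 were lower than in B cells in neutrophils (10.3% of all genes) and in plasma cells (8.16%). Plasmacytoid DCs had 10 lower (6.22%) and 1 higher (3.6%), and monocytes 8 lower (10.5%) and 0 higher. Macrophages had 8 lower (7.08%) and 1 higher (7.39%). Conventional DCs had 4 higher (7.82% of all genes) and 1 lower (6.97%). Their gate alone among the myeloid and plasmacytoid DC gates required the MHC II antibody, so this contrast is not independent of the gating. In monocytes, where Ctss and Ctsb were higher than in B cells, Cd74, the invariant chain, was at 5005 and 4528 CPM against 24850 and 26010 in B cells. In marginal zone against follicular B cells 8 of 11 were lower (4.65% of all genes) and 0 higher (5.54%). Among the 8 were Cd74 (−0.33, SE 0.02) and H2-DMb1 (−0.54, SE 0.14). Sorting receptors and transcription factors of lysosomal genes were seldom called: of 10 tested, no more than 1 was higher and 1 lower in any gate against B cells. Over all genes between 3.6% and 9.7% were higher and between 6.22% and 10.5% lower in these gates. Gga2, a sorting adaptor, was called lower in all 6 gates. All 9 antimicrobial genes tested were higher in neutrophils (8.61% of all genes), at a median of 10.75, led by Lcn2 (11.30, SE 0.29), Camp (10.96, SE 0.30), Ltf and Ngp, which serve as neutrophil markers. Among the 9, Elane (0 and 832 CPM) and Prtn3 (0 and 644 CPM) had no neutrophil UMI in Main1, so their calls rested on Main2. Lyz1 was at 9.87 and 48.9 CPM.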

How the data were processed

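RNA and antibody tags of spleen cells were read by CITE-seq after the spleen was pressed through a strainer, red cells were lysed and cells were stained, per the labels' protocols. Tools listed in the submitters' processing notes are bcl2fastq and Cell Ranger 3.0.2, with mm10 as the build. No source used here gives the counter of the antibody tags. The deposited tables hold UMI counts of 11713 genes and counts of 30 antibodies in 7097 droplets, with each gene in at least 15 droplets and 0 mitochondrial genes. Gene IDs were paired with symbols through GENCODE vM21 (GRCm38) for 11682 genes.

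Log antibody counts were centred over droplets, and a 2-component Gaussian mixture (scikit-learn 1.9.0) called a droplet positive at a posterior over 0.5 (NKp46 at 5 counts). Neutrophils were Ly6G+ CD11b+, macrophages F4/80+ CD106+, monocytes CD11b+ Ly6C+, conventional DCs CD11c+ MHC II+, plasmacytoid DCs Ly6C+ B220+, T cells CD3+ TCR+ and B cells positive for B lineage antigens, of which 1 is not reported here, each negative for the antigens of other gates. Doublets were limited by these negative gates and tested by leaving out some droplets by their marker genes. These had 3 or more B marker genes in a myeloid, plasmacytoid DC or T gate, or 3 or more T marker genes outside the T gate. Droplets that mix myeloid classes were not left out this way. UMIs were summed per gate and library and tested with edgeR 4.0.16 (R 4.3.3): quasi-likelihood F test, TMM factors, library as a block, genes with 50 or more UMIs, Benjamini-Hochberg adjustment over all genes. The scripts were tested on simulated data. The library blocks pair the gates by construction, since each library gave a sum to every gate. For the shares of droplets with a UMI each droplet was thinned to 1000 UMIs, and no droplet was shallower than that. Floors of 0 rest on 3 UMIs and, like intervals, cover counting error only.

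The genes and lists were chosen with earlier results of these data known. Named genes were the 10 members, the 3 genes most like each, the 4 largest called changes of each list, and list genes whose role is explained. B against T cells and the fit without erythroid-rich or plasma-rich droplets were added after seeing the data. Alternatives were library totals, DESeq2 1.42.0, no block, no count filter, no immunoglobulin genes, other gates and leaving out each library.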

Additional observations from a re-analysis of the deposited data

How the results depend on the processing

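Of 1418 values recomputed for single genes and comparisons, 1278 kept their side of the threshold without a called value changing sign (38 of these, called in neither fit, changed sign), 88 fell below it, 44 passed it and 8 turned. Gates on the within-droplet antibody scale turned Ctsh in macrophages against B cells (0.13) and monocytes (0.26), and Cst3 in plasma against B cells (−0.030), conventional DCs against monocytes (−0.36) and macrophages against conventional DCs (1.16). The antibody-only plasma gate turned Ctss (−0.77) and Cst3 (−0.27), and leaving out Main2 turned Cst3 in macrophages against monocytes (−0.35, and 1.69 without Main1). The cause was not tested. Of the 10 genes, 2 were then called in conventional DCs and 1 in plasma cells against B cells, and 5 in conventional DCs against monocytes, with within-droplet gates. Marginal zone against follicular B cells had 5 called, but 3 with library totals or within-droplet gates, 2 with DESeq2 and 1 without the replicate block. Without the block the other calls lost were Psap in plasma against B cells (adjusted p = 0.062), Ctsh in monocytes against neutrophils (0.076) and Ctsh in plasmacytoid against conventional DCs (0.074). With either library left out, in fits with fewer samples, the calls among the 10 genes ranged from 2 to 4 in plasma cells against B cells and from 3 to 5 in conventional DCs against monocytes. Marginal zone against follicular B cells could not be fitted with 1 library.

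Over all genes, calls in plasma against B cells went from 1135 (375 higher, 760 lower) to 2309 with library totals (244, 2065), 406 with within-droplet gates and 1864 with the antibody-only gate. Within-droplet gates gave 2032 in place of 1347 for macrophages and 659 in place of 1377 for conventional DCs against B cells. They gave 529 for 839 (monocytes against neutrophils), 217 for 334 (macrophages against monocytes), 271 for 637 (conventional DCs against monocytes) and 235 for 598 (plasmacytoid against conventional DCs). A stricter posterior gave 1208 for 1877 (monocytes), 890 (macrophages) and 866 (conventional DCs) against B cells, and 366 and 350 in the last 2 pairs. B against T cells fell from 2182 to 1165 with DESeq2, and marginal zone against follicular B cells from 861 to 393 with DESeq2 and 568 without the block. Leaving out a library gave between 163 and 1032 calls over 12 comparisons.

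Higher and lower calls split by scaling. Library totals gave 655 and 1614 for 802 and 961 (neutrophils), 548 and 219 for 335 and 579 (plasmacytoid DCs) against B cells, 909 and 247 for 457 and 382 (monocytes against neutrophils), 315 and 175 for 185 and 413 (plasmacytoid against conventional DCs) and 370 and 609 for 468 and 393 (marginal zone). DESeq2 gave in the same order 1053 and 411, 537 and 217, 286 and 424, 226 and 194, and 258 and 135. It also gave 962 and 501 for 903 and 974 (monocytes), 906 and 289 for 688 and 659 (macrophages), 775 and 333 for 728 and 649 (conventional DCs) and 536 and 295 (plasma cells) against B cells, 154 and 83 for 175 and 159 (macrophages against monocytes) and 234 and 105 for 216 and 197 (macrophages against conventional DCs). Within-droplet gates gave 318 and 12 in this last pair, 173 and 44 (macrophages against monocytes), 74 and 197 for 320 and 317 (conventional DCs against monocytes), 118 and 117 (plasmacytoid against conventional DCs) and 226 and 433 (conventional DCs against B cells).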
